A study of Homo sapiens with 8 samples.

Results

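The proteasome genes described here were all genes of both tables whose name begins with PSMA to PSMG followed by a number. There were 44 of them among the 11940 genes listed in either table, and 43 were among the 10685 genes listed in both. They comprised 7 alpha subunits of the core particle (PSMA), 6 constitutive and 4 immune or thymus beta subunits (PSMB), 5 ATPases (PSMC) and 11 non-ATPase subunits (PSMD) of the regulatory particle, 3 chaperones that assemble the base of that particle (PSMD5, PSMD9 and PSMD10), 3 activators (PSME) and 4 core assembly chaperones (PSMG). The name rule also caught PSMC3IP, a meiotic recombination factor that is no proteasome subunit. PSMA8, PSMB5, PSMC1, PSME2 and PSMF1 were not found under these names and were not analysed here.

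Ribosome footprints, the pieces of mRNA that ribosomes shield from nuclease, were measured in the established human skin fibroblast line BJ, in 4 groups of 2 libraries each. The groups were BJ-HRAS cells knocked out for the small nucleolar RNA SNORA13 (clones 66 and 69) after 7 days of 100 nM (Z)-4-hydroxytamoxifen (4-OHT), the same knockout clones without it, WT BJ-HRAS cells (clones 15 and 54) after the same treatment, and these WT clones without it. Every group has the BJ-HRAS background, HRAS being a GTPase of growth signalling that in its oncogenic form drives fibroblasts into senescence, and 4-OHT is a common inducer of proteins joined to an altered estrogen receptor domain. Each genotype is known only from 2 clones, so that genotype and clone cannot be told apart, and the libraries with and without 4-OHT stand in separate tables, so that 4-OHT and the table cannot be told apart. SNORA13 itself was in neither table. In this bulk measurement, fewer ribosomes per mRNA, less mRNA per cell and fewer cells making it cannot be told apart either.

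The values are reads per kilobase of gene span, introns included, scaled to library size (RPKM), and reads behind each value were recovered from the values themselves. Depth ran from 190892 to 982188 reads in knockout clones with 4-OHT, 901983 to 1710576 in knockout clones without, 589040 to 1686680 in WT clones with 4-OHT and 790743 to 1322044 in WT clones without. The shallowest library, knockout clone 66 with 4-OHT, listed 3169 of 11079 genes at 0. Values follow below in the order clone 66, clone 69 for the knockout and clone 15, clone 54 for WT. All 10 fibroblast markers looked up were present in every library. They took 2.71% and 2.75% of reads in knockout clones with 4-OHT against 7.64% and 6.50% without, and 2.59% and 3.10% in WT clones with 4-OHT against 8.53% and 8.30% without. With 4-OHT 7 of the 10 were called lower and 2, VIM and S100A4, higher in each genotype. Of all tested genes, 10.6% were called lower and 17.3% higher in the knockout, and 8.12% lower and 13.6% higher in WT. Leukocyte markers, mostly CD68 and CD14, took 0.0365% and 0.0406% of reads in knockout clones with 4-OHT against 0.0168% and 0.0289% without, and 0.0262% and 0.0279% in WT clones with 4-OHT against 0.0140% and 0.0170% without. Of the leukocyte markers looked up, 4 were listed without 4-OHT and 3 with it. Neither CD68 nor CD14 was called in either genotype. CD14 was lower with 4-OHT in knockout clone 69, at 17.5 against 20.1 RPKM, and higher in the other clones. PTPRC, which defines leukocytes, was at or near 0 in the table without 4-OHT and not listed in the other. Epithelial markers, mostly KRT18, took at most 0.0381% of reads and melanocyte markers at most 0.00786%. The part of these shifts in the results below was not tested.

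The proteasome is the large protease that degrades ubiquitin-tagged proteins. Its barrel-shaped core has outer rings of alpha subunits, which form the gate, and inner rings of beta subunits, some of which cut peptides. A regulatory particle with ATPases and ubiquitin receptors caps the core, unfolds the substrates and feeds them in. Under interferon, PSMB8, PSMB9 and PSMB10 take the places of the cutting subunits PSMB5, PSMB6 and PSMB7, giving the immunoproteasome that prepares peptides for antigen presentation. When proteasome activity is short, the transcription factor NFE2L1 (NRF1) with a small Maf partner switches on many PSM genes together through antioxidant response elements (ARE) in their promoters.

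Since many of these genes moved together with 4-OHT, the 250 bases upstream of their start sites were searched on both strands in the RefSeq promoters of GRCh38.p14, which held 38 of the 44 genes. The ARE core TGACNNNGC occurred in 12 of the 38 (31.6%), against 13.2% of all 27305 genes with a promoter, and in single promoters of all genes in 10.9% of 35116. The interferon-linked patterns of a pair of GAAA blocks 2 bases apart (ISRE-like) and TTCNNNGAA (GAS) occurred in 4 (10.5%) and 5 (13.2%) of the 38, against 3.71% and 8.09% of all genes, and CCAAT in 19 (50.0%), against 37.0%. Of the 12 tested members with the ARE core, 7 (58.3%) were among the genes called higher with 4-OHT in either genotype, and of the 24 without it, 12 (50.0%). Of all tested genes, 17.3% were called higher in the knockout and 13.6% in WT. The share called higher in either genotype was not computed over all genes, so the shares of 58.3% and 50.0% only describe the members. Not searched were PSMA7, PSMB1, PSMB6, PSMB7 and PSMD4, all called higher in both genotypes, and PSMG3, which was not tested. These shares therefore leave out called genes. A match is a string of letters and not a shown binding site. The 4 windows below show a called gene with the ARE core (PSMB3), the gene with the highest change in the knockout and no match (PSMD2), and a pair of immunoproteasome genes that were not called, one with an ARE core on the other strand (PSMB9) and one with an ISRE-like match (PSMB10). They lie at chr17:38752491-38752740 (plus strand), chr3:184298991-184299240 (plus strand), chr6:32853942-32854191 (plus strand) and chr16:67936851-67937100 (minus strand). Each is written 5′ to 3′ on the strand of its gene, up to the base before the start site, and capitals mark matches of the ARE, ISRE-like or GAS pattern.
PSMB3: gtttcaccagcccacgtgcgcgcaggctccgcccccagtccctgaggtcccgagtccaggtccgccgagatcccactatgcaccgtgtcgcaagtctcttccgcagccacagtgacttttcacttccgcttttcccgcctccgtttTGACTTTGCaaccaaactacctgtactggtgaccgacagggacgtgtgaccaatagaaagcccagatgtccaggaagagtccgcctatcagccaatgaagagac
PSMD2: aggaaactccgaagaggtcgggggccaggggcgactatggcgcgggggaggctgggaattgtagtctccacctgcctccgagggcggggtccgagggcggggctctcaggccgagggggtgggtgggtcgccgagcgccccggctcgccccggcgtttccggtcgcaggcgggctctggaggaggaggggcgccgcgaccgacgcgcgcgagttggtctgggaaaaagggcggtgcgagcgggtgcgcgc
PSMB9: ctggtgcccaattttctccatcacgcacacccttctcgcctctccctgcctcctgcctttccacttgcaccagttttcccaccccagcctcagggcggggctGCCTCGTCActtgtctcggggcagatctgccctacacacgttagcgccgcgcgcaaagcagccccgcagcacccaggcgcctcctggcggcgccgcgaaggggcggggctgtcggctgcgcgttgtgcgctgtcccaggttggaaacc
PSMB10: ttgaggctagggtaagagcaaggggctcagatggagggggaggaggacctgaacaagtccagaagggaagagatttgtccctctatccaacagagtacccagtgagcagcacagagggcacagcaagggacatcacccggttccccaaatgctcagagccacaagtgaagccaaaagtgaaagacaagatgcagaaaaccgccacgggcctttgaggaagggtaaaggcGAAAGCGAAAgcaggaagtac

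With 4-OHT, footprints of most proteasome genes were higher in both genotypes. Of the 43 genes in both tables, 29 were higher with 4-OHT in 4 of 4 clones, and PSMA5, PSMB9 and PSMB10 were lower in 4 of 4. The share of all genes that did so was not computed, so these counts only describe the members. Some of the falls were slight. PSMB9 had 4.72 RPKM in WT clone 15 with 4-OHT against 4.75 without, and PSMB10 31.3 in knockout clone 66 against 31.7. In knockout clones 20 of 41 tested members rose and 0 fell (limma adjusted p under 0.05), against 17.3% of all 8727 tested genes called higher and 10.6% called lower. In WT clones 20 of 41 rose and 0 fell, against 13.6% of all tested genes called higher and 8.12% called lower. Counting both directions, 27.9% of all tested genes were called in the knockout and 21.7% in WT. At an unadjusted p under 0.05 stood 29 members in the knockout (41.2% of all tested genes) and 26 in WT (34.9%). The median log2 change of the members was 0.64 in the knockout and 0.78 in WT, beside 0.05 and 0.06 over all tested genes. PSMB11, PSMG3 and PSMG4 had too few reads to be tested.

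Of these calls 16 were shared by both genotypes, 80.0% of each list. PSMA4, PSMD8, PSMD12 and PSMD13 passed only in the knockout and PSMA6, PSMC3, PSMD3 and PSMD9 only in WT, and none of these differences between genotypes passed its own test (limma interaction, smallest adjusted p over the members 0.856). The knockout and WT clones with 4-OHT did not overlap those without, and lay above them, for 31 of 41 members in the knockout (36.9% of all tested genes) and for 34 in WT (41.6%). They lay below for 4 in the knockout (25.8% of all tested genes) and 3 in WT (27.5%). PSMA2, PSMB6 and PSMD2 were called in both genotypes, and PSMA7 and PSMB7 in the knockout, under all 12 alternatives. The counts themselves moved: median-ratio scaling called 10 members higher and 4 lower in the knockout and 11 higher and 2 lower in WT. These were 34.1% and 31.7% of the members, against 26.8% and 20.5% of all tested genes. The size of the change moved too. With that scaling the members' median log2 change stood 0.40 in the knockout and 0.54 in WT above that of all genes. In the main fit it stood 0.59 and 0.72 above. Fitting only the 4 libraries of the knockout left 11 calls there, 27.5% of the members against 16.0% of all tested genes.

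The counts also rest on single libraries. Each fit that leaves out 1 library leaves 1 in that group. In every such fit fewer members were called than with all libraries, and over all genes the number called changed too. In some of these fits the share of members called was close to that of all tested genes. The counts are therefore no measure of the members apart from all genes. In the knockout, the median log2 change of the members was 0.63 and 0.69 without clone 66 or 69 without 4-OHT. Over all tested genes it was 0.04 and 0.08. Without clone 66 or 69 with 4-OHT the median of the members was 0.74 and 0.66, against 0.09 and 0.03. In the WT fits with 1 library left out, the median log2 change of the members was 0.63 to 0.81. Over all tested genes it was 0.05 to 0.07.

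**Figure D1:**
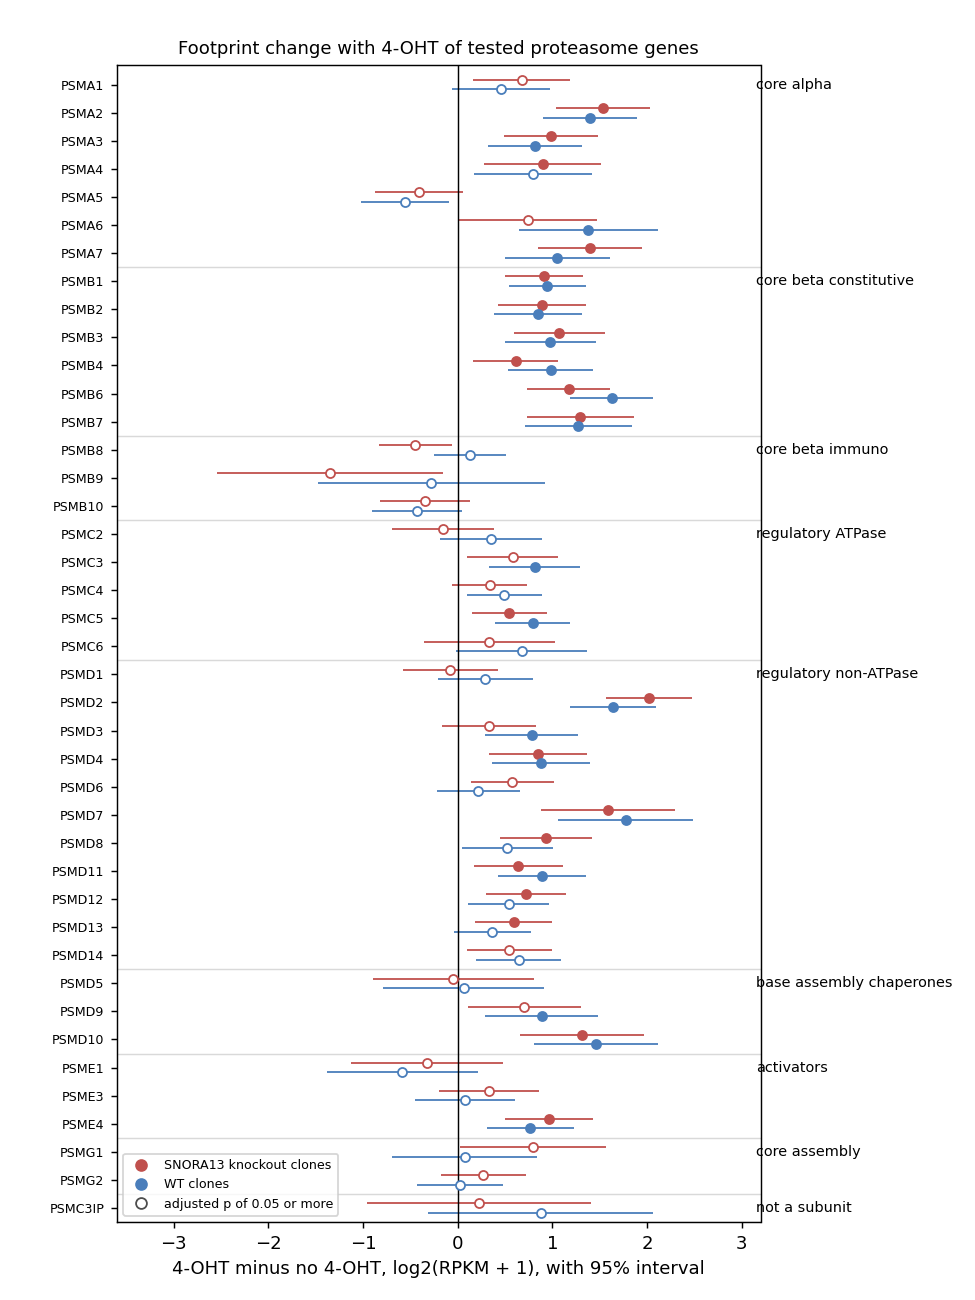
Change with 4-OHT (4-OHT minus no 4-OHT, difference of log2(RPKM + 1), with 95% limma intervals) of each of the 41 tested members, by class, for knockout clones (red) and WT clones (blue). Filled points passed an adjusted p of 0.05: all 6 constitutive beta subunits are filled in both genotypes, while PSMB8, PSMB9 and PSMB10 are open and mostly left of 0.

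All 6 constitutive beta subunits found rose in both genotypes, with log2 changes of 0.61 to 1.30 in the knockout and 0.85 to 1.63 in WT. PSMB6, which cuts after acidic residues, had 169 and 172 RPKM in knockout clones with 4-OHT, against 75.2 and 75.1 RPKM without. In WT clones it had 212 and 250 RPKM with 4-OHT, against 83.4 and 65.4 RPKM without. Every treated library was thus well above every untreated one, and the log2 change was 1.17 (SE 0.19, limma adjusted p = 0.00444) in the knockout and 1.63 (SE 0.19, limma adjusted p = 0.00154) in WT. PSMB7, which cuts after basic residues, had 7.35 and 11.5 RPKM in knockout clones with 4-OHT, against 3.43 and 2.91 RPKM without. In WT clones it had 9.15 and 7.37 RPKM with 4-OHT, against 2.76 and 2.86 RPKM without. The groups did not overlap in either genotype, and PSMB7 rose by a log2 change of 1.30 in the knockout (SE 0.24, limma adjusted p = 0.00799) and 1.28 in WT (SE 0.24, limma adjusted p = 0.00994).

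The other constitutive beta subunits, PSMB1, PSMB2, PSMB3 and PSMB4, have structural rather than cutting roles. PSMB3, whose promoter is shown above, averaged 68.6 ± 4.31 RPKM in knockout clones with 4-OHT and 32.3 ± 5.38 RPKM without (SD, n = 2 each), and 60.9 ± 0.168 RPKM in WT clones with 4-OHT and 30.8 ± 6.14 RPKM without (SD, n = 2 each). PSMB1 rose by log2 0.91 in the knockout and 0.95 in WT, and PSMB2 by 0.89 and 0.85. PSMB4 had 168 and 183 RPKM in knockout clones with 4-OHT against 120 and 109 RPKM without, and 216 and 285 RPKM in WT clones with 4-OHT against 123 and 128 RPKM without. Its call in the knockout (log2 change 0.61, limma adjusted p = 0.0496) held under 0 of 12 alternatives and stood at an adjusted p of 0.0692 with the clone as a block.

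Of the 7 alpha subunits, which build the outer rings and the gate, 4 rose in the knockout (PSMA2, PSMA3, PSMA4 and PSMA7) and 4 in WT (PSMA2, PSMA3, PSMA6 and PSMA7). PSMA2 had the largest log2 change of the class in both genotypes. Its values were 22.9 and 26.5 RPKM in knockout clones with 4-OHT, against 6.59 and 9.28 RPKM without, and 24.0 and 20.1 RPKM in WT clones with 4-OHT, against 7.95 and 7.43 RPKM without. All treated libraries lay above all untreated ones, by log2 1.54 in the knockout (SE 0.21, limma adjusted p = 0.00252) and 1.40 in WT (SE 0.21, limma adjusted p = 0.00405). PSMA7 rose by log2 1.40 in the knockout and 1.05 in WT. PSMA3 rose by 0.99 in the knockout and 0.82 in WT, where the limma adjusted p was 0.0324 and became 0.0521 with the clone as a block.

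PSMA5 went the other way from the rest of its ring. It had 15.9 and 15.8 RPKM in knockout clones with 4-OHT, against 22.3 and 20.3 RPKM without, and 19.0 and 16.3 RPKM in WT clones with 4-OHT, against 30.5 and 22.7 RPKM without. It was lower with 4-OHT in 4 of 4 clones and the groups did not overlap in either genotype, but the log2 changes of -0.41 (SE 0.20, limma adjusted p = 0.166) in the knockout and -0.55 (SE 0.20, limma adjusted p = 0.0922) in WT did not pass. Under both median-ratio scaling and limma-voom on recovered reads it was called lower in both genotypes. The ratio of mean RPKM with over without 4-OHT was 0.741 in the knockout and 0.663 in WT for PSMA5, and ran from 1.94 to 3.11 in the knockout and 1.70 to 3.54 in WT for the other alpha subunits.

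In the regulatory particle 7 of 11 non-ATPase subunits rose in the knockout and 5 of 11 in WT, and none fell. PSMD2 (RPN1), the scaffold on which ubiquitin receptors dock, had the largest log2 change of all members in the knockout. It had 99.3 and 89.9 RPKM in knockout clones with 4-OHT, against 20.0 and 25.3 RPKM without, and 88.0 and 81.0 RPKM in WT clones with 4-OHT, against 29.1 and 23.8 RPKM without. The treated libraries lay at 4.17 times the mean of the untreated ones in the knockout and 3.19 times in WT, with log2 changes of 2.02 (SE 0.19, limma adjusted p = 0.000711) and 1.64 (SE 0.19, limma adjusted p = 0.00170). PSMD7 (RPN8), the partner of the deubiquitinating subunit PSMD14 in the lid, had 28.2 and 28.0 RPKM in knockout clones with 4-OHT, against 6.55 and 11.4 RPKM without, and 30.9 and 34.8 RPKM in WT clones with 4-OHT, against 11.5 and 6.81 RPKM without. It rose by log2 1.59 in the knockout (SE 0.30, limma adjusted p = 0.00866) and 1.77 in WT (SE 0.30, limma adjusted p = 0.00647), the largest change of all members in WT.

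PSMD4, a ubiquitin receptor, rose by log2 0.85 in the knockout and 0.88 in WT, and PSMD11 by 0.64 and 0.89. PSMD8, PSMD12 and PSMD13 rose in the knockout only by the adjusted p, and PSMD3 in WT only. With the clone as a block the calls of PSMD11 (adjusted p = 0.0883), PSMD12 (0.0557) and PSMD13 (0.0858) in the knockout and of PSMD3 (0.0755) in WT were lost. PSMD14, the deubiquitinase itself, had a log2 change of 0.54 in the knockout and 0.65 in WT and was higher in 4 of 4 clones, with limma adjusted p of 0.0731 and 0.0511. PSMD1 (RPN2), the second large scaffold, had 2.44 and 2.22 RPKM in knockout clones with 4-OHT against 2.76 and 2.28 RPKM without, and 2.89 and 3.34 RPKM in WT clones with 4-OHT against 2.82 and 1.95 RPKM without. Neither change of PSMD1 passed (log2 -0.08 in the knockout, with a 95% interval of -0.58 to 0.42, and 0.29 in WT, with one of -0.21 to 0.79).

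Among the 5 ATPases, which unfold the substrate, PSMC5 rose in both genotypes and PSMC3 in WT. PSMC5 averaged 71.4 ± 3.99 RPKM in knockout clones with 4-OHT and 48.6 ± 5.25 RPKM without, and 77.7 ± 5.74 RPKM in WT clones with 4-OHT and 44.4 ± 0.838 RPKM without (SD, n = 2 each). Its log2 change was 0.55 in the knockout (limma adjusted p = 0.0488, and 0.0896 with the clone as a block) and 0.79 in WT (limma adjusted p = 0.0158). PSMC3 had the largest log2 change of the class in both, 0.58 in the knockout (limma adjusted p = 0.0742) and 0.81 in WT (limma adjusted p = 0.0302). PSMC2 had 4.71 and 6.95 RPKM in knockout clones with 4-OHT against 6.02 and 6.97 RPKM without, and 9.20 and 7.28 RPKM in WT clones with 4-OHT against 6.64 and 5.79 RPKM without. It was the only ATPase with a log2 change below 0 in either genotype, -0.15 in the knockout, and its change passed in neither.

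The base of the regulatory particle is put together with chaperones, of which 3 were measured. PSMD10 (gankyrin) had 13.6 and 18.3 RPKM in knockout clones with 4-OHT, against 4.53 and 7.25 RPKM without, and 23.2 and 15.7 RPKM in WT clones with 4-OHT, against 6.39 and 6.21 RPKM without. It rose by log2 1.31 in the knockout (SE 0.28, limma adjusted p = 0.0133) and 1.46 in WT (SE 0.28, limma adjusted p = 0.0103), with no overlap of groups. PSMD9 rose in WT (log2 change 0.89, limma adjusted p = 0.0453) and had 0.70 in the knockout (limma adjusted p = 0.0790). PSMD5 had 0.975 and 2.92 RPKM in knockout clones with 4-OHT against 1.40 and 2.44 RPKM without, and 3.0 and 2.53 RPKM in WT clones with 4-OHT against 3.21 and 2.07 RPKM without. The PSMD5 groups overlapped in both genotypes.

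Neither tested PSMG chaperone of the core particle was called with all libraries in the fit. POMP, another chaperone of the core particle, is given further below. PSMG1 and PSMG2, which work as a pair in building the alpha ring, had log2 changes of 0.79 and 0.27 in the knockout and 0.07 and 0.02 in WT. PSMG1 had 8.65 and 7.96 RPKM in knockout clones with 4-OHT against 2.69 and 6.82 RPKM without, and 6.14 and 6.36 RPKM in WT clones with 4-OHT against 6.08 and 5.71 RPKM without. The values of clone 66 rested on 14.4 recovered reads with 4-OHT and 21.2 without. With clone 69 without 4-OHT left out, PSMG1 was called higher in the knockout (log2 1.34, limma adjusted p = 0.0133), and with clone 66 without 4-OHT left out the change was 0.25 (limma adjusted p = 0.506). PSMG2 had 1.56 and 1.28 RPKM in knockout clones with 4-OHT against 0.827 and 1.20 RPKM without, and 1.02 and 1.11 RPKM in WT clones with 4-OHT against 1.16 and 0.906 RPKM without. The second pair was barely detected. PSMG3 had 0 and 2.40 RPKM in knockout clones with 4-OHT against 2.94 and 2.07 RPKM without, and 3.32 and 4.00 RPKM in WT clones with 4-OHT against 2.23 and 2.61 RPKM without. In clone 66 with 4-OHT, where PSMG3 was listed at 0, a value of up to 5.82 RPKM (3 reads) would not have been told from 0. PSMG4 rested on 4 reads or fewer in every library, with 0 and 0.0459 RPKM in knockout clones with 4-OHT against 0.0749 and 0.132 RPKM without, and 0.174 and 0.191 RPKM in WT clones with 4-OHT against 0.153 and 0.142 RPKM without.

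Of the activators, which open the core without the ATPases, PSME4 (PA200) rose in both genotypes. It had 2.55 and 2.0 RPKM in knockout clones with 4-OHT, against 0.653 and 0.689 RPKM without, and 1.85 and 1.48 RPKM in WT clones with 4-OHT, against 0.679 and 0.449 RPKM without. The groups did not overlap, and the ratio of the means was 3.39 in the knockout and 2.94 in WT, while the log2 changes of RPKM + 1 were 0.97 (limma adjusted p = 0.0110) and 0.77 (limma adjusted p = 0.0310, and 0.0571 with the clone as a block). PSME1, the interferon-inducible activator subunit that pairs with PSME2, had 107 and 57.5 RPKM in knockout clones with 4-OHT against 84.0 and 116 RPKM without, and 83.1 and 66.8 RPKM in WT clones with 4-OHT against 136 and 92.2 RPKM without. It was lower with 4-OHT in 3 of 4 clones, clone 66 being the other, and its log2 changes of -0.33 in the knockout and -0.58 in WT did not pass, though limma-voom called it lower in both. PSME3, the nuclear activator, had 7.80 and 11.3 RPKM in knockout clones with 4-OHT against 7.54 and 6.99 RPKM without, and 10.6 and 8.75 RPKM in WT clones with 4-OHT against 8.28 and 9.95 RPKM without, and did not pass either.

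The 3 tested immunoproteasome subunits did not share the rise of the constitutive ones: none was called in either genotype, and their median log2 change was -0.45 in the knockout and -0.28 in WT, beside 0.99 and 0.98 for the constitutive beta subunits. PSMB10, which replaces PSMB7, had 31.3 and 25.6 RPKM in knockout clones with 4-OHT against 31.7 and 41.4 RPKM without, and 26.0 and 28.2 RPKM in WT clones with 4-OHT against 39.4 and 34.5 RPKM without. It was lower in 4 of 4 clones, by log2 -0.34 in the knockout (limma adjusted p = 0.243) and -0.43 in WT (limma adjusted p = 0.181), and was called lower in both genotypes with median-ratio scaling and after the span correction described below. PSMB8, which replaces PSMB5 and lies at chr6:32840717-32844679, had 23.7 and 20.9 RPKM in knockout clones with 4-OHT against 30.9 and 30.5 RPKM without, and 24.2 and 22.1 RPKM in WT clones with 4-OHT against 20.9 and 21.3 RPKM without. It was lower in both knockout clones (log2 -0.45, limma adjusted p = 0.0821) and higher in both WT clones (log2 0.13, limma adjusted p = 0.622), and the sign in WT turned under 4 of 12 alternatives. In the knockout it was called lower under 4 of 12, among them median-ratio scaling (limma adjusted p = 0.0134) and limma-voom (adjusted p = 0.0393). Whether reads were assigned by strand is not given, so that reads of PSMB8 and of any RNA antisense to it cannot be told apart.

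PSMB9, which replaces PSMB6 and lies nearby at chr6:32854192-32859851, had 0.678 and 4.61 RPKM in knockout clones with 4-OHT against 6.46 and 7.23 RPKM without, and 4.72 and 5.05 RPKM in WT clones with 4-OHT against 4.75 and 7.86 RPKM without. The low value of clone 66 with 4-OHT stands for 0.733 recovered reads and lies under the 2.78 RPKM that 3 reads would give in that library. The log2 change of -1.35 in the knockout (SE 0.51, limma adjusted p = 0.0885) was -0.48 without that library. Without clone 69 with 4-OHT it was -2.22 and was called. PSMB11, the thymus subunit, was listed only in the table with 4-OHT, at 1.46 RPKM (1.59 recovered reads) in WT clone 54 and at 0 in the 3 other libraries.

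**Figure D2:**
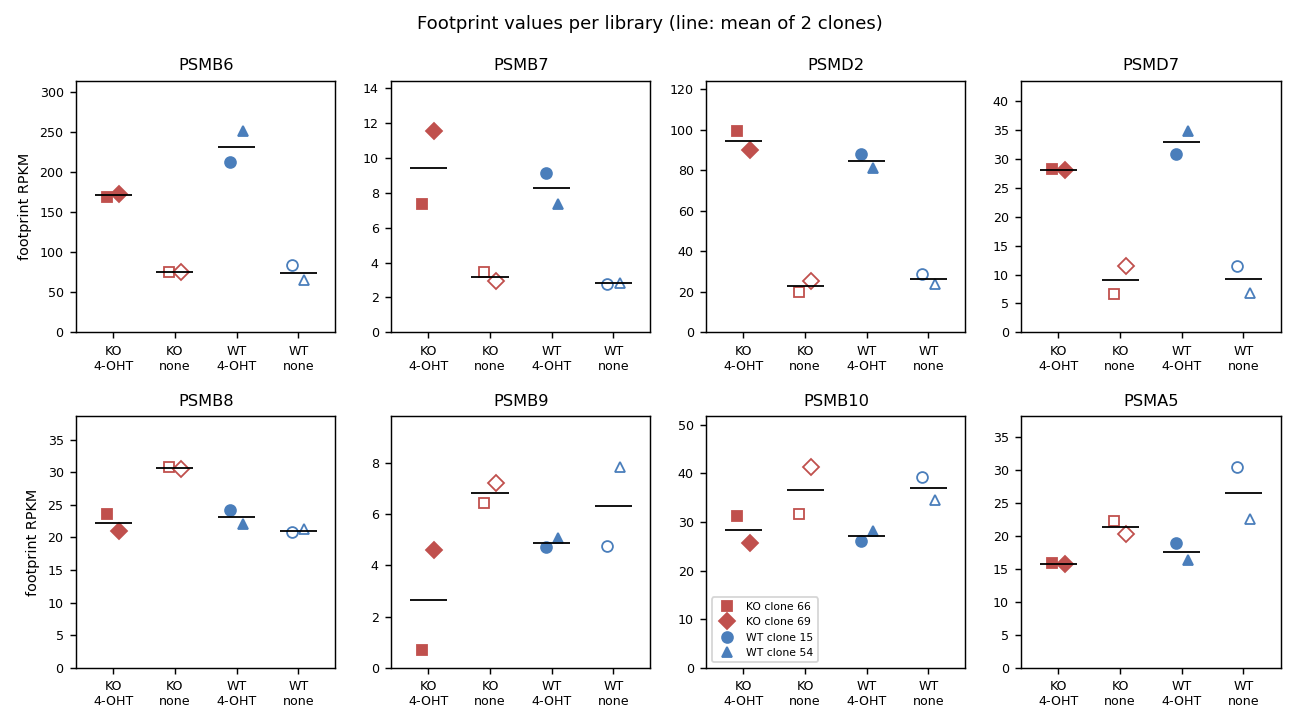
Footprint RPKM of 8 members in each library, by group (knockout with 4-OHT, knockout without, WT with 4-OHT, WT without), with the mean of the 2 clones as a line and each clone as its own symbol. PSMB6, PSMB7, PSMD2 and PSMD7 lie higher with 4-OHT in every clone, while PSMB9, PSMB10 and PSMA5 lie lower in every clone and PSMB8 is lower in the knockout clones only.

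Within a library, the ratio of an immune subunit to its constitutive counterpart gives the same contrast without any scaling between libraries. The RPKM ratio of PSMB10 to PSMB7 was 4.25 and 2.22 in knockout clones with 4-OHT, against 9.22 and 14.2 without. In WT clones it was 2.85 and 3.83 with 4-OHT, against 14.3 and 12.1 without. Every treated library was thus below every untreated one. The ratio of PSMB9 to PSMB6 was 0.00402 and 0.0268 in knockout clones with 4-OHT, against 0.0859 and 0.0963 without, and 0.0223 and 0.0202 in WT clones with 4-OHT, against 0.0570 and 0.120 without. Both genes of such a ratio have their own span, so its level says nothing on the makeup of the particle, and only its difference between libraries can be read.

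The same pattern showed in the share of all reads. All listed members together took 1.15% and 1.15% of reads in knockout clones with 4-OHT, against 0.637% and 0.676% without, and 1.21% and 1.19% in WT clones with 4-OHT, against 0.745% and 0.636% without. The constitutive beta subunits took 0.315% and 0.340% in knockout clones with 4-OHT, against 0.155% and 0.159% without, and 0.353% and 0.372% in WT clones with 4-OHT, against 0.178% and 0.153% without. The immune subunits took 0.0168% and 0.0166% in knockout clones with 4-OHT, against 0.0230% and 0.0254% without, and 0.0181% and 0.0180% in WT clones with 4-OHT, against 0.0198% and 0.0206% without. Treated and untreated libraries did not overlap for any of these shares, and the immune share alone was lower with 4-OHT.

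**Figure D3:**
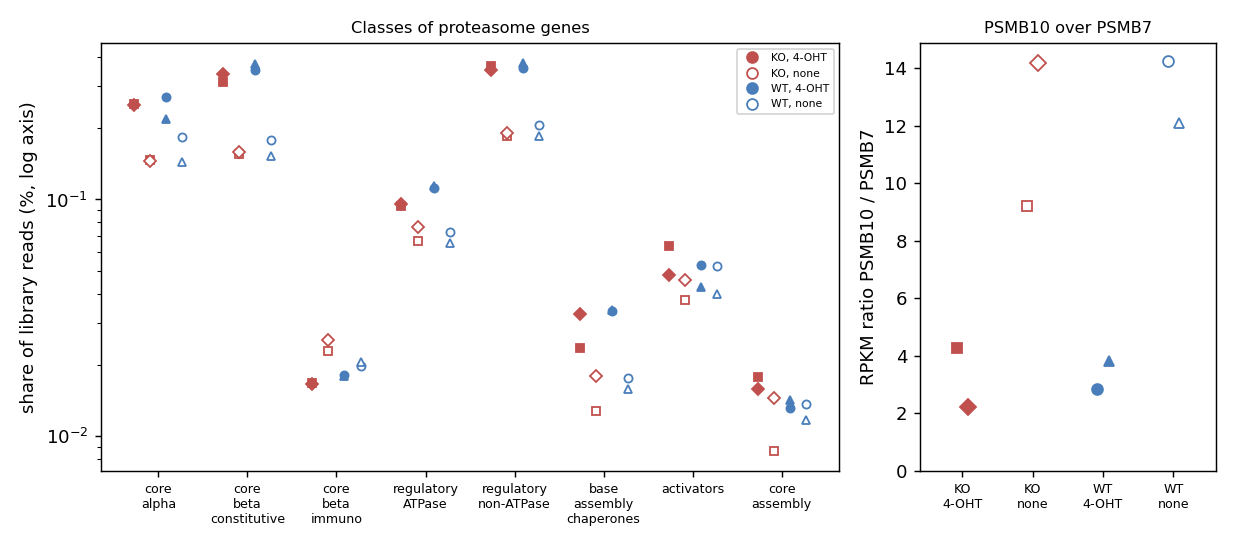
Share of all library reads (percent, log axis) taken by each class of proteasome genes, and the RPKM ratio of PSMB10 to PSMB7, in each of the 8 libraries. Filled symbols are libraries with 4-OHT and open symbols those without; filled symbols lie above open ones for the core alpha, constitutive beta, ATPase, non-ATPase and base chaperone classes, and below them for the immune beta class and for the ratio.

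Of 17 tested factors that bind or build the proteasome but are named otherwise, 2 rose and 2 fell in the knockout, where 17.3% of all tested genes were called higher and 10.6% lower. In WT 2 rose and 1 fell, where 13.6% of all tested genes were called higher and 8.12% lower. POMP, the chaperone that completes the core particle, had 25.6 and 23.6 RPKM in knockout clones with 4-OHT, against 7.72 and 6.01 RPKM without, and 29.7 and 23.5 RPKM in WT clones with 4-OHT, against 8.05 and 6.31 RPKM without. It rose by log2 1.71 in the knockout (SE 0.21, limma adjusted p = 0.00175) and 1.75 in WT (SE 0.21, limma adjusted p = 0.00192), under all 12 alternatives in both. ADRM1, a ubiquitin receptor, rose by 0.83 in the knockout (limma adjusted p = 0.0377, and 0.0526 with the clone as a block) and 1.30 in WT (limma adjusted p = 0.00831). The call of ADRM1 in the knockout held under 1 of 12 alternatives. ZFAND5, which stimulates the proteasome, fell by 1.39 on the log2 scale in the knockout (limma adjusted p = 0.0106) and by 1.56 in WT (limma adjusted p = 0.00811). VCP, the segregase that extracts ubiquitin-tagged proteins, fell by 0.68 on the log2 scale in the knockout (limma adjusted p = 0.0244, and 0.0578 with the clone as a block) and had -0.56 in WT (limma adjusted p = 0.0539).

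Of 6 genes of NFE2L1-linked transcriptional control, 1 rose in both genotypes and none fell, where 17.3% of all tested genes were called higher in the knockout and 13.6% in WT. NFE2L1 had 23.0 and 20.2 RPKM in knockout clones with 4-OHT against 28.6 and 28.8 RPKM without, and 24.9 and 24.7 RPKM in WT clones with 4-OHT against 26.0 and 26.9 RPKM without. Its footprints were not higher with 4-OHT in any clone (log2 -0.40, limma adjusted p = 0.108 in the knockout, and -0.09, limma adjusted p = 0.740 in WT). NFE2L2 (NRF2), a related factor, had 0.00 and -0.06. MAFK, a small Maf partner, had 2.97 and 2.64 RPKM in knockout clones with 4-OHT against 0.629 and 1.04 RPKM without, and 1.92 and 2.61 RPKM in WT clones with 4-OHT against 0.245 and 0 RPKM without. It rose by log2 1.06 in the knockout (limma adjusted p = 0.0132) and 1.54 in WT (limma adjusted p = 0.00359). The call of MAFK in the knockout held under 8 of 12 alternatives. It was lost, among others, with a pseudocount of 0.1 and with limma-voom on recovered reads. In WT the call held under all 12, with log2 changes of 1.38 to 3.75. Of 4 tested genes of ubiquitin supply, 2 rose and 0 fell in each genotype, among them UBB, which encodes ubiquitin, by 1.26 in the knockout and 1.14 in WT. After correction for gene span the change of UBB in WT was 0.48 and no longer called (limma adjusted p = 0.0867), and it was not called with the clone as a block in that fit either. Ubiquitin genes share near-identical sequence and the handling of reads with several positions is not given, so their split among these genes is uncertain.

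Of 14 tested genes of interferon-linked antigen processing, which works with the immunoproteasome, 8 fell and 0 rose in the knockout, where 10.6% of all tested genes were called lower. In WT 3 fell and 0 rose, where 8.12% of all tested genes were called lower. The median log2 changes of the 14 were -0.72 in the knockout and -0.50 in WT. With the clone as a block, the fall of TAPBP, a chaperone of peptide loading, was no longer called in the knockout (limma adjusted p = 0.0570, against 0.0362 without the block). Nor was that of ERAP1, a peptide-trimming protease, in WT (limma adjusted p = 0.0548, against 0.0279 without the block). IRF9, a transcription factor of the interferon response, had 1.90 and 10.9 RPKM in knockout clones with 4-OHT against 33.8 and 30.1 RPKM without, and 9.46 and 9.24 RPKM in WT clones with 4-OHT against 29.9 and 40.8 RPKM without. Every treated library lay below every untreated one. It fell by 2.49 on the log2 scale in the knockout (limma adjusted p = 0.0167) and had -1.80 in WT (limma adjusted p = 0.0607). The value of 1.90 RPKM is that of clone 66 with 4-OHT, the shallowest library. Without that library the change of IRF9 in the knockout was -1.47, and without clone 69 with 4-OHT it was -3.50, called both times. Without clone 66 or clone 69 without 4-OHT it was not called (limma adjusted p at most 0.0877). TAP1, a subunit of the peptide transporter and a neighbour of PSMB9, had 4.78 and 7.90 RPKM in knockout clones with 4-OHT against 21.0 and 30.5 RPKM without, and 8.72 and 10.6 RPKM in WT clones with 4-OHT against 15.6 and 27.4 RPKM without. It fell by 1.88 on the log2 scale in the knockout (limma adjusted p = 0.00688) and had -1.03 in WT (limma adjusted p = 0.0700, and 0.0298 with the clone as a block).

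The genotypes were set against each other inside each table. With 4-OHT, 0 of 41 members and 0 of 7712 tested genes were called (limma), with 1 member and 365 genes (4.73%) at an unadjusted p under 0.05. Without 4-OHT, 0 of 40 members and 0 of 8096 genes were called, with 2 members and 686 genes (8.47%) at an unadjusted p under 0.05. By limma-voom on recovered reads 39 genes with 4-OHT and 67 without were called, with 0 members among them. The median log2 difference between knockout and WT over the members was -0.03 with 4-OHT and -0.02 without, beside -0.01 and -0.01 over all tested genes. Knockout clones lay above both WT clones for 7 members and below for 12 with 4-OHT (19.2% and 18.4% of all tested genes), and above for 3 and below for 5 without (18.9% and 20.7%).

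The members with an unadjusted p under 0.05 were PSMC3IP with 4-OHT and PSMB8 and PSMC6 without. PSMB8 had 30.9 and 30.5 RPKM in knockout clones without 4-OHT, against 20.9 and 21.3 RPKM in WT clones without it, a log2 difference of 0.52 (SE 0.16, limma adjusted p = 0.577). With 4-OHT the knockout clones had 23.7 and 20.9 RPKM of PSMB8, against 24.2 and 22.1 RPKM in WT clones, a log2 difference of -0.06. The change with 4-OHT in the knockout minus that in WT was -0.58 (SE 0.23, limma adjusted p = 0.856) for PSMB8. Over all members that interaction was called for 0 of 41, and over all genes for 0 of 8727, with 1 member and 454 genes (5.20%) at an unadjusted p under 0.05. By limma-voom it was called for 3 genes and 0 members. PSMC3IP had 0 and 1.66 RPKM in knockout clones with 4-OHT, against 2.37 and 4.31 RPKM in WT clones with it (log2 difference -1.37, limma adjusted p = 0.823). Without the library of knockout clone 69 with 4-OHT, the log2 difference was -2.08 for PSMC3IP and -1.81 for PSMB9. Clone 66, the shallowest library, then stood alone and was assumed to vary like the WT clones. Its PSMC3IP value was 0, where 3 reads would give 2.85 RPKM, and its PSMB9 value rested on 0.733 recovered reads.

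The deposited values are per gene span, and the change with 4-OHT was related to that span over all genes. Over the 8727 tested genes Spearman's rho of log2 change and span was -0.22 in the knockout and -0.28 in WT, a description across genes that share libraries. The tested members had a median span of 13.5 kb, against 34.2 kb over all tested genes. Among the 41 members themselves rho was 0.05 in the knockout and -0.05 in WT. After a correction for span in each library 18 members were called higher and 3 lower (PSMB8, PSMB9 and PSMB10) in the knockout, and 19 higher and 1 lower (PSMB10) in WT. Over all 8727 tested genes that fit called 2024 higher and 830 lower in the knockout, and 1730 higher and 653 lower in WT. Without the correction these counts were 1507 and 929 in the knockout and 1189 and 709 in WT. That correction moved the median of all genes to 0.16 in the knockout and 0.18 in WT, and the members' median stood 0.51 and 0.48 above it, against 0.59 and 0.72 above the median of all genes without the correction.

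**Figure D4:**
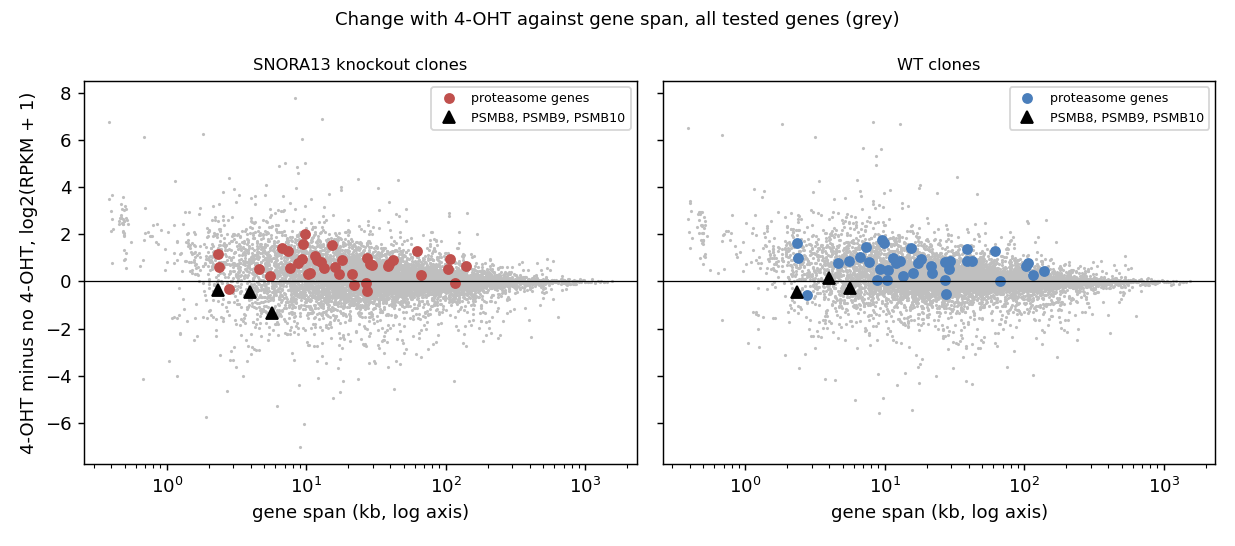
Change with 4-OHT (difference of log2(RPKM + 1)) against gene span (kb, log axis) for all 8727 tested genes (grey) and the proteasome genes, in knockout clones and in WT clones. Most members lie above 0 over the whole range of spans, and PSMB8, PSMB9 and PSMB10 (triangles) lie among the lowest members.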

How the data were processed

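Ribosome-protected fragments were sequenced from 8 libraries. Per the submitters' processing notes, STAR and GRCh38 were used; the read counter, annotation, versions, strand setting and handling of reads with several positions were not stated. The authors deposited values that match RPKM (reads per kilobase of gene span, introns included, and per library size), with no unit named in the tables: value times RefSeq span (GRCh38.p14), divided by the total that RPKM would give, summed to between 1.01 and 1.02 in every library. Recovered reads are that product in units of the step of each library; between 78.5% and 83.5% of low values (up to 10.1 reads) lay within 0.1 of a whole number. Reads are approximate, and limits of 3 reads cover counting error only.

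Groups and clones came from the titles. The fit was limma-trend (limma 3.58.1, R 4.3.3) on log2(RPKM + 1) with group means, on 8 libraries for 4-OHT and the interaction and on the 4 libraries of a table for knockout against WT, on genes that reached 10 recovered reads in 2 or more libraries; adjustment was by Benjamini-Hochberg over all tested genes, with a threshold of 0.05. A count test had been foreseen had the values been counts. Adding 1 shrinks log2 changes of low values, so that they are smaller than ratios of RPKM. The p-values measure the spread between clones. The members and gene lists were chosen with earlier results of these data known. Named were the catalytic subunits, all PSME and PSMG genes, and the highest and lowest change of each class, and of each pathway list up to 4 called genes with the largest change, besides NFE2L1, NFE2L2 and POMP.

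The same clone was sampled with and without 4-OHT, so that clones pair the libraries; deviations from the group means correlated at 0.00684 in the knockout and 0.146 in the WT clones, and the fit with the clone as a block (replicate block) is given where it changes a call. Alternatives were a pseudocount of 0.1, no filter, median-ratio scaling, limma-voom on recovered reads, a loess correction for span (loess span 0.5), the block with and without that correction, other sets of libraries, and each library left out. The fits were also run on simulated data drawn without differences between clones, which says nothing on the spread between clones here. Levels per coding length were not computed, so no levels of different genes are compared. Some genes of these lists are not reported here.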

Additional observations from a re-analysis of the deposited data

How the results depend on the processing

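In the knockout, the number of members called with 4-OHT stayed within 1.5 times of 20 except for 11 when only the 4 libraries of that genotype were fitted, and ran from 6 to 18 with a library left out. In WT it stayed within 1.5 times of 20 except for 13 with median-ratio scaling, and ran from 4 to 8 with a library left out. With the replicate block 15 members (36.6%) were called in the knockout and 17 (41.5%) in WT, against 23.2% and 17.9% of all tested genes. The member calls lost are named with their genes, and the block added no call among the members. With block and span correction the counts were 20 (48.8%) and 17 (41.5%), against 30.0% and 26.0% of all tested genes. With a pseudocount of 0.1 they were 18 (43.9%) and 20 (48.8%), against 25.6% and 19.8%. Without a filter they were 17 (39.5%) and 19 (44.2%), against 20.2% and 15.8%. With limma-voom on recovered reads they were 20 (17 higher, 3 lower) and 24 (22 higher, 2 lower). Over all genes that fit called 1272 higher and 1328 lower in the knockout and 1333 higher and 1492 lower in WT. Median-ratio scaling turned the split over all genes to 1008 higher and 1333 lower in the knockout, against 1507 and 929, and to 818 and 972 in WT, against 1189 and 709. Limma-voom moved the median of all genes to -0.06 in the knockout. Of 20 member calls, 9 in each genotype held under all 8 alternatives that used every library, and 5 in the knockout and 3 in WT under all 12. Knockout against WT called 0 members under every alternative that kept 2 libraries in each group, and so did the interaction. The values without knockout clone 69 with 4-OHT, where clone 66 stood alone, are given above. No called value turned its sign, and of 1206 alternative values 38, all of changes not called, had the other sign. Levels per coding length and their alternative were not run, since coding lengths were not used here. Depth limits PSMB9, PSMB11, PSMC3IP, PSMG3 and PSMG4, above all in knockout clone 66 with 4-OHT.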
